A study of Homo sapiens with 6 samples.

Results

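The 34 genes described here make cholesterol and fatty acids or control that synthesis. They were chosen by name, with earlier results of these data known. They comprise 7 genes of the mevalonate arm, 11 of the squalene and sterol arm, 5 of the control by sterol regulatory element-binding proteins (SREBPs), 3 of uptake and sterol transport, and 8 of fatty acid synthesis. A gene was read from array probe sets that the annotation assigns to that gene alone, and 31 members had at least 1. Of these, 29 were tested, and 2 were under the filter, which asked for a log2 value of at least 4 on at least 2 of the 6 arrays. The whole series held 19775 genes with a probe set of their own, 10370 of them tested.

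The variants BR200, BR100 and wild type of HT-29, a line from a human adenocarcinoma of the colon, were measured. BR200 and BR100 are bortezomib-resistant variants. Bortezomib is a drug that blocks the proteasome. Per the labels, resistant cells were grown in bortezomib raised from 20 to 300 nM during 7 months, and clones were then isolated by limiting dilution in 100 or 300 nM during 4 further months. The labels repeat that text for wild type, do not give the dose under which BR200 was cloned, and do not say whether the drug was present at harvest. Each variant had 2 arrays, 1 labelled from 100 ng of RNA with the 3' IVT Express kit and 1 from 3 ug with the One-Cycle kit. The labels do not say whether both arrays of 1 variant hold RNA of different cultures. The main model took out the mean difference between the kits. Its p-values therefore measure how far the differences between variants disagree between the 2 kits, a spread that may be technical. A resistant variant that is 1 clone stands for that clone only.

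Cells build cholesterol from acetyl-CoA through mevalonate, isoprenoid diphosphates, squalene and lanosterol. SREBP transcription factors raise the genes of that route and of fatty acid synthesis. The carrier SCAP takes SREBPs from the endoplasmic reticulum to the Golgi for activation, and INSIG proteins hold SCAP back when sterols are plentiful. Liver X receptors (LXRs), which bind oxysterols, act on other genes, among them the sterol exporters ABCA1 and ABCG1, the ubiquitin ligase MYLIP and SREBF1. In the intestinal epithelium both systems help to balance sterol made, taken up and exported.

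Upstream sequence is shown for 5 members: 3 that were among the called sterol genes of both resistant clones (INSIG1, FDPS, MSMO1), the SREBP gene SREBF2, and MYLIP, which was lower. RefSeq windows of build GRCh38.p14 were available for 30 of the 34 members, and the 250 bases before each transcript start are read here 5' to 3'. Capitals mark CACNCCAC, the core of a sterol regulatory element, and CCAAT, the letters bound by the factor NF-Y, on either strand (GTGGNGTG and ATTGG when read on the strand shown).
INSIG1, chr7:155297628-155297877, plus strand: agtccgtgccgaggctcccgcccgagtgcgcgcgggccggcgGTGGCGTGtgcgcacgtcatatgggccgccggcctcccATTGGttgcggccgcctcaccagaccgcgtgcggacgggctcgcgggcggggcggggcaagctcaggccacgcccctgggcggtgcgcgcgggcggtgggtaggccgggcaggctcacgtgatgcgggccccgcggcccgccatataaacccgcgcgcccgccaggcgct
FDPS, chr1:155308616-155308865, plus strand: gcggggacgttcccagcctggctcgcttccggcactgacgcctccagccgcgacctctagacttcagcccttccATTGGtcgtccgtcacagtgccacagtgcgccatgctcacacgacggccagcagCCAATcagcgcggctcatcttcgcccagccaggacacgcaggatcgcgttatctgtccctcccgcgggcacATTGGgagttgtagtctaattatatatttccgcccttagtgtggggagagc
MSMO1, chr4:165327419-165327668, plus strand: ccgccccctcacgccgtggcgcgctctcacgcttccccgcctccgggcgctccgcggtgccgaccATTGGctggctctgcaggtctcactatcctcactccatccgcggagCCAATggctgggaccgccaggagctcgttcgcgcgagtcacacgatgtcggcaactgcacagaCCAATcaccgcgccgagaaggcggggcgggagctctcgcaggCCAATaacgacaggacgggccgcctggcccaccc
SREBF2, chr22:41832855-41833104, plus strand: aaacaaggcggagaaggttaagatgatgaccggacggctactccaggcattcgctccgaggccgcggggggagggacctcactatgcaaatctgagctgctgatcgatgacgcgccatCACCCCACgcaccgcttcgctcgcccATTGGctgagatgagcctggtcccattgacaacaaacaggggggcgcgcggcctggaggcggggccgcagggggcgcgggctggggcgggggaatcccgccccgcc
MYLIP, chr6:16128836-16129085, plus strand: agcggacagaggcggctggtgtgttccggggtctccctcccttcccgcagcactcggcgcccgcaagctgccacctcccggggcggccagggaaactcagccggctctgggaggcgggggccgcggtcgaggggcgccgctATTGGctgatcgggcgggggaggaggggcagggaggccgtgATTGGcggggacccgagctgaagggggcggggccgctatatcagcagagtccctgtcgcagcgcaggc
CCAAT stood in 9 of 11 windows of the squalene and sterol arm and in 6 of 9 of the mevalonate arm, against 24 of 42 windows of all members and 32% of all 35116 windows. CACNCCAC stood in 6 of the 42 member windows (those of ACACA, IDI1, INSIG1, SC5D, SCD and SREBF2) and in 4.87% of all windows. The longer TCACNCCAC, every match of which also counts for CACNCCAC, was in SREBF2 only among members, and in 0.883% of all windows. The GC box GGGCGG was in 37 member windows and 42.6% of all, and the E-box CACGTG in 4 and 6.34%. Several windows of 1 gene can overlap, so windows are not independent. These are matches of letters in a short window, and a window without a match says only that these letters are not in it.

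Between 34.8% and 35.3% of the probe sets of an array lay at the lowest value, 2.234 on the log2 scale. Of 10 intestinal epithelial markers 8 were at 4 or more on all 6 arrays, EPCAM, KRT8 and KRT18 among them, while CDX2 and CDH17 were near background on every array. The summed log2 level of that list was 104.50 to 105.21 in BR200, 103.41 to 104.31 in BR100 and 112.93 to 113.88 in wild type, with LGALS4, a galectin, at −5.56 in BR200 and −5.99 in BR100 against wild type (log2). All 6 adipocyte and hepatocyte markers were near background (under 4) on every array, as were 4 of 5 fibroblast, 3 of 4 blood and 3 of 4 endothelial markers, PTPRC among them. The blood list summed to 13.09 to 13.59 in BR200, 12.46 to 12.65 in BR100 and 12.16 to 12.42 in wild type, all but CD14 being near background. The 3' minus 5' gap of ACTB, which follows RNA integrity and labelling, was 3.24 and 1.76 in BR200, 3.03 and 1.86 in BR100, and 4.22 and 2.995 in wild type (Express, then One-Cycle). The gap thus moved with every comparison against wild type, and its part in the results was not tested. In these bulk samples, fewer cells of a type and less RNA per cell cannot be told apart.

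Most tested cholesterol and fatty acid synthesis genes were higher in both resistant clones than in wild type. Among the synthesis enzymes, SCD was not called higher in either clone, and NSDHL and SC5D were not called in BR200. The control and uptake groups held genes called in each direction. In BR200, 20 of the 29 tested members were called higher, against 35.4% of all genes tested, and 6 were called lower, against 31.2%. In BR100, 23 were called higher, against 36.7% of all genes, and 4 lower, against 31.8%. Because the members were chosen with earlier results of these data known, these shares describe the list and are no independent test of it. The median log2 change of the members was 0.85 in BR200 and 1.28 in BR100, and that of all genes was 0.04 in each. Calls are those of limma with the labelling kit as a block, at p under 0.05 after Benjamini-Hochberg adjustment across the 10370 genes. Both comparisons use the same wild type arrays. On Express arrays the median of the members was 0.81 in BR200 and 1.22 in BR100, and on One-Cycle arrays it was 0.89 and 1.31.

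**Figure D1:**
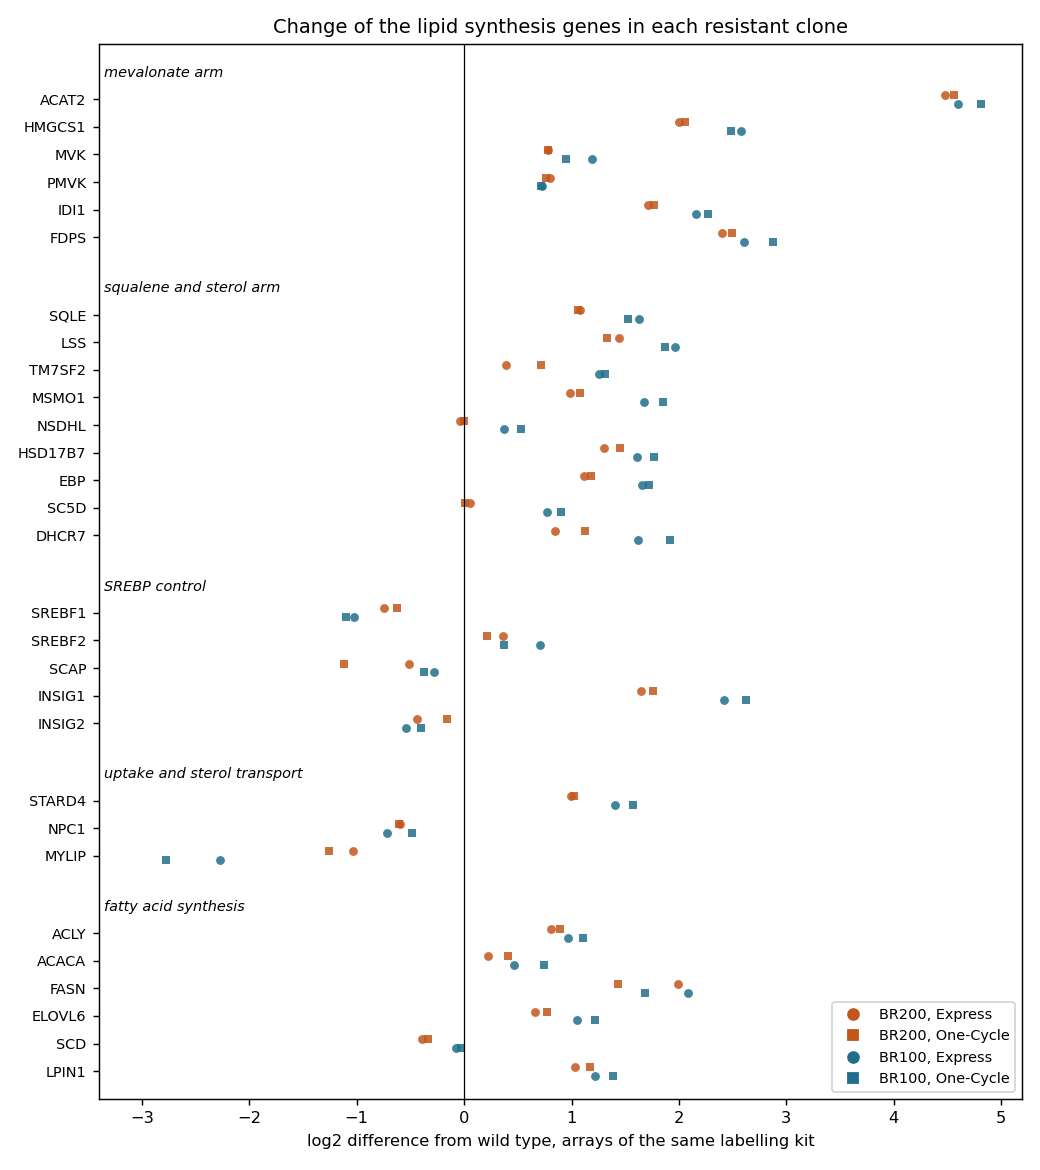
Log2 difference of each tested member from wild type (x axis, arrays of the same labelling kit) by gene and branch (rows); orange is BR200, blue is BR100, circles are Express and squares One-Cycle arrays. All 6 tested genes of the mevalonate arm lie right of 0 in both clones, while SREBF1, INSIG2, SCAP, NPC1 and MYLIP lie left of it.

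All 6 tested genes of the mevalonate arm were called higher than in wild type, with a median log2 change of 1.88 in BR200 and 2.37 in BR100. The share of all genes called higher was 35.4% in BR200 and 36.7% in BR100. The arm opens with ACAT2, the cytosolic thiolase that joins acetyl-CoA units to acetoacetyl-CoA. ACAT2 read 10.96 and 10.86 in BR200, 11.09 and 11.10 in BR100, and 6.48 and 6.29 in wild type (log2, Express then One-Cycle). Wild type lay far under both clones on both kits. ACAT2 had no second probe set beside 209608_s_at. The change was 4.52 in BR200 (SE 0.08, 23.0-fold, adjusted p = 8.1e-05) and 4.71 in BR100 (SE 0.08, 26.1-fold, adjusted p = 7e-05), the highest among the tested members in each clone. HMGCS1, which makes HMG-CoA, read 10.01 and 9.82 in BR200, 10.58 and 10.25 in BR100, and 8.004 and 7.77 in wild type. FDPS, which makes farnesyl diphosphate, read 12.17 and 11.77 in BR200, 12.37 and 12.15 in BR100, and 9.76 and 9.28 in wild type. For both genes every array of a resistant clone was above every wild type array. HMGCS1 rose 4.08-fold in BR200 and 5.78-fold in BR100, and FDPS 5.47-fold and 6.68-fold. IDI1, the isopentenyl diphosphate isomerase, rose by 1.74 in BR200 (SE 0.07) and by 2.22 in BR100 (SE 0.07). Both kinases of the arm changed less. MVK, which phosphorylates mevalonate, rose by 0.78 and 1.07, and PMVK, which adds the next phosphate, by 0.78 and 0.72 (BR200, then BR100). MVD, the decarboxylase that follows them, was not tested: it read 2.96 and 3.13 in BR200, 3.37 and 4.46 in BR100, and 2.28 and 2.96 in wild type, so only 1 array reached 4.

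**Figure D2:**
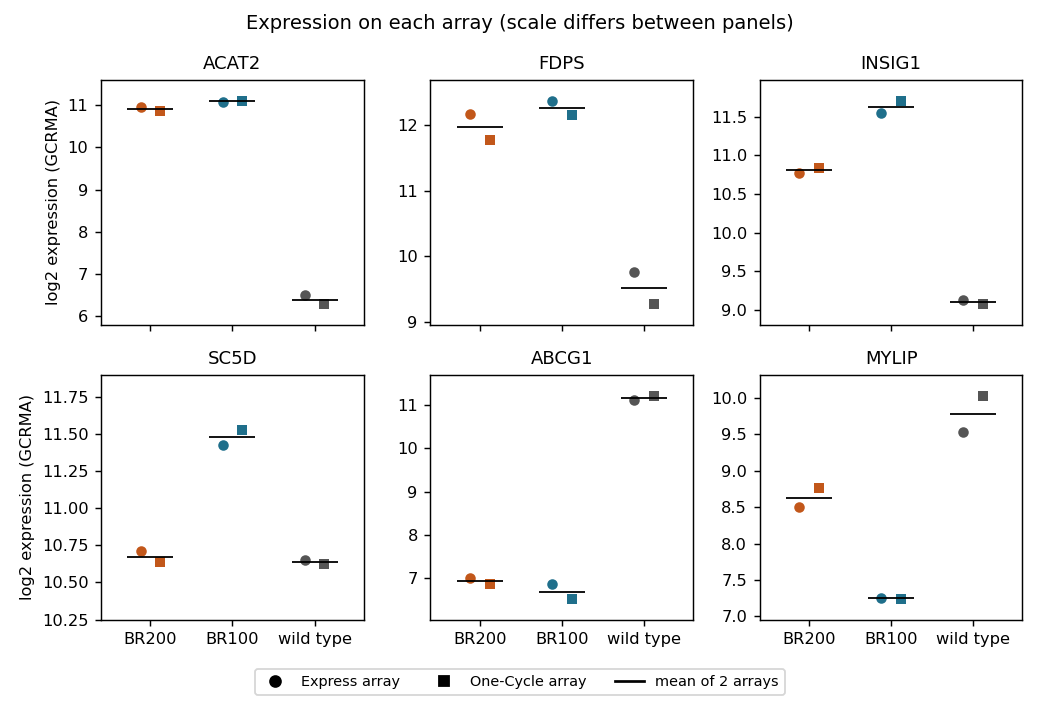
Log2 expression (y axis, GCRMA values, scale differs between panels) of 5 members and the exporter ABCG1 in BR200, BR100 and wild type; circles are Express arrays, squares One-Cycle arrays and lines the mean of 2 arrays. ACAT2, FDPS and INSIG1 lie higher in both clones than in wild type, SC5D only in BR100, and ABCG1 and MYLIP lie lower in both clones.

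In the squalene and sterol arm, 7 of 9 tested genes were called higher in BR200 (median log2 change 1.03) and all 9 in BR100 (median 1.69). Beside them stand 35.4% of all genes in BR200 and 36.7% in BR100. SQLE, the epoxidase that commits squalene to sterols, read 13.02 and 13.23 in BR200, 13.57 and 13.70 in BR100, and 11.94 and 12.17 in wild type. LSS, the lanosterol synthase, read 8.94 and 8.83 in BR200, 9.46 and 9.37 in BR100, and 7.50 and 7.50 in wild type. On both kits the order was BR100, BR200, wild type from high to low for either gene. SQLE rose 2.10-fold in BR200 and 2.98-fold in BR100, and LSS 2.62-fold and 3.77-fold. Among enzymes that trim lanosterol, MSMO1, the C4-methyl oxidase, rose by 1.03 in BR200 and 1.76 in BR100, HSD17B7 by 1.38 and 1.69, and TM7SF2, a sterol reductase, by 0.55 and 1.28. The TM7SF2 call in BR200 was lost without the BR200 One-Cycle array (log2 change 0.40, adjusted p = 0.0507) and without the wild type One-Cycle array (0.46, adjusted p = 0.0674). EBP, the isomerase of the last steps, read 10.95 and 10.56 in BR200, 11.48 and 11.11 in BR100, and 9.83 and 9.39 in wild type. DHCR7, the final reductase, read 9.11 and 9.37 in BR200, 9.89 and 10.17 in BR100, and 8.27 and 8.25 in wild type. EBP rose by 1.15 in BR200 and 1.69 in BR100, and DHCR7 by 0.98 and 1.77.

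SC5D and NSDHL were called in BR100 and were close to 0 in BR200. SC5D, the desaturase that precedes DHCR7, read 10.71 and 10.63 in BR200, 11.43 and 11.53 in BR100, and 10.65 and 10.62 in wild type. Only the BR100 arrays stood apart. The change was 0.03 in BR200 (SE 0.08, adjusted p = 0.718) and 0.84 in BR100 (SE 0.08, adjusted p = 0.00108). NSDHL, a dehydrogenase of C4 demethylation, was at −0.02 in BR200 (SE 0.07, adjusted p = 0.811) and rose by 0.45 in BR100 (SE 0.07, adjusted p = 0.00613). CYP51A1, the lanosterol demethylase, had no probe set of its own. The probe set 202314_at, annotated to CYP51A1 together with LRRD1, read 12.24 and 12.23 in BR200, 12.72 and 12.62 in BR100, and 11.61 and 11.69 in wild type, and was left out of the tests. FDFT1 was not analysed here.

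The 5 genes of SREBP control moved in both directions. INSIG1, which retains SCAP in the endoplasmic reticulum and is itself an SREBP target, read 10.78 and 10.84 in BR200, 11.55 and 11.71 in BR100, and 9.13 and 9.08 in wild type. It rose 3.25-fold in BR200 (log2 change 1.70, SE 0.08, adjusted p = 0.000257) and 5.74-fold in BR100 (2.52, SE 0.08, adjusted p = 0.000121). Its relative INSIG2 read 9.45 and 9.92 in BR200, 9.34 and 9.68 in BR100, and 9.88 and 10.08 in wild type, so BR200 and wild type overlapped. INSIG2 was called lower in both clones, by 0.30 in BR200 (SE 0.09, adjusted p = 0.0435) and 0.47 in BR100 (SE 0.09, adjusted p = 0.0105). Those INSIG2 calls were weak: leaving out 5 of the 6 arrays in turn ended the call in BR200 (adjusted p = 0.0632 to 0.237 without either BR200 array, either BR100 array or the wild type Express array), and leaving out either BR100 array ended it in BR100 (0.0657 and 0.0666).

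SREBF1, whose product drives fatty acid genes, read 8.03 and 7.72 in BR200, 7.75 and 7.25 in BR100, and 8.78 and 8.35 in wild type. It fell by 0.69 in BR200 (SE 0.08, adjusted p = 0.00209) and by 1.06 in BR100 (SE 0.08, adjusted p = 0.000579). Within each kit, wild type was the highest and BR100 the lowest. SREBF2, which drives sterol genes and whose window holds a sterol regulatory core, read 7.46 and 8.47 in BR200, 7.80 and 8.64 in BR100, and 7.09 and 8.26 in wild type. The kits differed more for SREBF2 than the variants did, and within each kit wild type was the lowest. Its change was 0.29 in BR200 (SE 0.10, adjusted p = 0.0648) and 0.54 in BR100 (SE 0.10, adjusted p = 0.00959), the second lost without the BR100 Express array (0.41, adjusted p = 0.0548). SCAP read 7.81 and 6.96 in BR200, 8.03 and 7.71 in BR100, and 8.32 and 8.08 in wild type. It fell by 0.82 in BR200 (SE 0.17, adjusted p = 0.0138), a call lost without the wild type One-Cycle array (−0.64, adjusted p = 0.0917), and was at −0.33 in BR100 (SE 0.17, adjusted p = 0.155, and past the threshold without either BR200 array at 0.0371 and 0.0374).

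In the uptake and transport group, STARD4 was higher and NPC1 and MYLIP lower in both clones. STARD4, a cytosolic sterol carrier, read 8.50 and 8.98 in BR200, 8.92 and 9.53 in BR100, and 7.51 and 7.96 in wild type, a rise of 1.01 in BR200 and 1.49 in BR100 (SE 0.08 each). NPC1, which moves sterol out of lysosomes, read 9.86 and 9.63 in BR200, 9.74 and 9.75 in BR100, and 10.45 and 10.23 in wild type, and fell by 0.60 in each clone (SE 0.09). MYLIP, also called IDOL, marks lipoprotein receptors for degradation and is an LXR target. It read 8.50 and 8.76 in BR200, 7.26 and 7.25 in BR100, and 9.53 and 10.03 in wild type, with no overlap between any pair of variants. MYLIP fell by 1.15 in BR200 (SE 0.14, adjusted p = 0.00246) and by 2.53 in BR100 (SE 0.14, adjusted p = 0.000294), the lowest value among the tested members in each clone.

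Of 6 tested genes of fatty acid synthesis, 5 were called higher in each clone, against 35.4% of all genes in BR200 and 36.7% in BR100. Their median log2 change was 0.78 in BR200 and 1.08 in BR100 over all 6. FASN, the fatty acid synthase, read 8.60 and 8.96 in BR200, 8.69 and 9.21 in BR100, and 6.61 and 7.53 in wild type, and rose 3.28-fold in BR200 and 3.69-fold in BR100. ACLY, which splits citrate to acetyl-CoA, rose by 0.85 and 1.04, ELOVL6, which lengthens palmitate, by 0.72 and 1.13, and LPIN1, a phosphatidate phosphatase, by 1.10 and 1.31 (BR200, then BR100). These 4 genes were called in both clones and on both kits had wild type lowest. ACACA, the acetyl-CoA carboxylase, changed by 0.31 in BR200 (SE 0.09, adjusted p = 0.0399) and 0.60 in BR100 (SE 0.09, adjusted p = 0.00516). Leaving out any array but the wild type Express array ended the ACACA call in BR200 (adjusted p = 0.0537 to 0.18, with log2 values of 0.20 to 0.43 over all 6 omissions). SCD, the desaturase that makes oleate, read 13.85 and 13.70 in BR200, 14.16 and 14.02 in BR100, and 14.24 and 14.05 in wild type. It fell by 0.37 in BR200 (SE 0.07, adjusted p = 0.0084, lost without either BR200 array at 0.0652 and 0.0579) and was at −0.05 in BR100 (SE 0.07, adjusted p = 0.507). FADS2, a desaturase of polyunsaturated acids, read 2.39 and 2.37 in BR200, 2.47 and 2.38 in BR100, and 2.38 and 2.38 in wild type, and was not tested. FADS1 had only probe sets shared with MIR1908.

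The genes above were read from the probe set with the highest mean, and 16 members had 2 or more that passed the filter. Probe sets of 1 gene did not always give the same call. The other 3 SCD probe sets were at 0.84, 1.18 and 1.69 in BR100, all called higher, and at 0.23, 0.69 and 0.65 in BR200, the first of which did not pass (adjusted p = 0.0567). With its 4 probe sets averaged, SCD was higher in both clones, by 0.30 in BR200 (adjusted p = 0.0341) and 0.92 in BR100 (adjusted p = 0.00104), so its direction depends on the probe set. ACACA's second probe set, 214358_at, rose by 2.27 in BR200 and 2.58 in BR100. IDI1 was at 1.92 in BR200 and 2.45 in BR100 on 208881_x_at, but the others, 233014_at and 242065_x_at, did not pass (0.45 and 0.50 in BR200, 0.02 and 0.19 in BR100). With all 4 averaged, IDI1 was at −0.06 between the clones (adjusted p = 0.666), against −0.48 on the probe set used here. The second SREBF1 probe set was at 0.27 in BR200 and 0.10 in BR100, neither past the test, and with both averaged SREBF1 was at −0.21 in BR200 (adjusted p = 0.143).

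INSIG1, SQLE and MYLIP gave 1 direction each and were called on every probe set that passed the filter. The 3 probe sets of INSIG1 gave 1.70 to 2.03 in BR200 and 2.52 to 2.84 in BR100, and the 4 of SQLE gave 1.02 to 1.64 and 1.58 to 2.64. The 5 of MYLIP that passed gave −2.50 to −0.81 in BR200 and were all called lower in both clones. In BR100, 4 of them gave −2.53 to −1.68, while 228097_at was near background there, at 3.78 and 3.89, so that its −4.52 is no measured size. HMGCS1 rose by 2.98 in BR200 and 3.89 in BR100 on its second probe set, which was near background on the wild type Express array at 2.82. MVK on 36907_at was at 0.18 in BR200 and 0.15 in BR100, neither past the test. On 215649_s_at MVK was at 0.52 in BR200, not past limma's test (adjusted p = 0.182), and at 0.98 in BR100, called higher (adjusted p = 0.0394). The probe set used for MVK read low, at 5.80 and 5.76 in BR200, 6.22 and 5.92 in BR100, and 5.03 and 4.97 in wild type. ELOVL6 on 227491_at was at 0.13 in BR200 and −0.02 in BR100, also not past the test.

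Some calls against wild type did not outlast a change of setting. Without the kit block the calls of SREBF1, SCAP, INSIG2, TM7SF2, ACACA, SCD, STARD4 and LPIN1 in BR200 (adjusted p = 0.056 to 0.34) and of SREBF2 (0.493), INSIG2 (0.151) and ACACA in BR100 were lost. Without the filter those of SCAP, INSIG2, TM7SF2, ACACA, NPC1 and MYLIP in BR200 (0.0526 to 0.177) and of SREBF2, INSIG2, ACACA and NPC1 in BR100 (0.0524 to 0.0885) were lost. LSS with its probe sets averaged, those near background included, was at 0.49 in BR200 (adjusted p = 0.0788). Without _x_at and _s_at probe sets, IDI1 was at 0.45 in BR200 and 0.02 in BR100 (adjusted p = 0.0787 and 0.938).

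**Figure D3:**
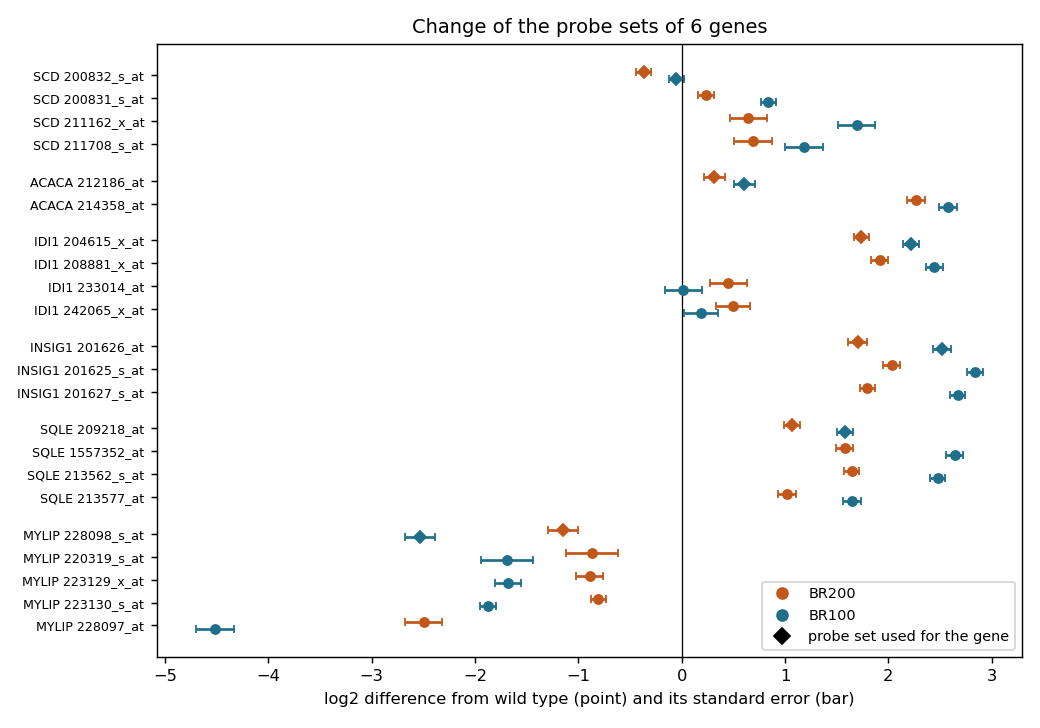
Log2 difference from wild type (x axis, points, with the standard error as bars) for the probe sets of 6 genes (rows), BR200 in orange and BR100 in blue; diamonds mark the probe set used for the gene. The 4 SCD probe sets lie on both sides of 0, the 3 of INSIG1 lie right of it and the 5 of MYLIP left of it.

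Genes of the wider pathway are given beside the shares of all genes tested, which were 35.4% higher and 31.2% lower in BR200 and 36.7% higher and 31.8% lower in BR100. Of 15 tested genes in the list of other sterol and isoprenoid enzymes, 9 were higher and 3 lower in BR200 and 8 higher and 4 lower in BR100. ERG28, a scaffold of sterol C4 demethylation, rose by 2.03 in BR200 and 2.19 in BR100. PDSS1 and PDSS2, which build the tail of coenzyme Q, rose by 1.69 and 1.63 in BR200 and by 2.02 and 1.70 in BR100, and RABGGTA, a prenyl transferase subunit, by 1.44 and 1.48. In the list of SREBP processing and sterol sensing, 2 of 11 were higher and 6 lower in each clone. TMEM97, an SREBP target and sterol-binding membrane protein, rose by 2.33 in BR200 and 2.65 in BR100, UFD1, a cofactor of endoplasmic reticulum degradation, rose by 1.20 and 1.16, and the ubiquitin ligases RNF145 and RNF139 fell by 1.59 and 0.73 in BR200 and by 1.47 and 0.92 in BR100. Among 20 other genes of fatty acid and glycerolipid synthesis, 8 were higher and 7 lower in BR200 (40.0% and 35.0%) and 9 higher and 6 lower in BR100 (45.0% and 30.0%), shares close to those of all genes. SLC25A1, the mitochondrial citrate carrier, rose by 1.55 in BR200 and 1.95 in BR100, TECR, a reductase of chain elongation, by 1.31 and 1.19, and ACSL1, an acyl-CoA synthetase, by 0.61 and 1.01, while its relative ACSL5 fell by 1.38 and 1.14.

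Among genes tested in these wider lists, the exporter ABCG1 had the lowest change. In the list of sterol efflux, storage and LXR, 3 of 11 were higher and 5 lower in each clone (27.3% and 45.5%, against 35.4% and 31.2% of all genes in BR200 and 36.7% and 31.8% in BR100). ABCG1, a sterol exporter and LXR target, read 7.01 and 6.87 in BR200, 6.86 and 6.53 in BR100, and 11.11 and 11.20 in wild type. It fell by 4.21 in BR200 (SE 0.12, adjusted p = 0.000131) and 4.46 in BR100 (SE 0.12, adjusted p = 9e-05). ABCA1, the other LXR-driven exporter, read 8.67 and 8.43 in BR200, 8.04 and 7.62 in BR100, and 9.24 and 8.90 in wild type, and fell by 0.52 in BR200 and 1.25 in BR100. NR1H3, an LXR gene picked after its value was seen, was at −0.08 in BR200 and −0.18 in BR100 (limma's adjusted p = 0.488 and 0.153). It stands for no other LXR gene, and LXR activity was not measured. NPC2 and LIPA, which release sterol in lysosomes, rose by 1.88 and 1.11 in BR200 and by 1.43 and 0.84 in BR100. Of 17 fatty acid oxidation genes, 11 were higher in BR200 (64.7%, against 35.4% of all genes) and 12 in BR100 (70.6%, against 36.7%). In each clone 5 were lower (29.4%), close to the share of all genes. ACAA2 and HADH rose by 1.82 and 1.27 in BR200 and by 2.02 and 1.53 in BR100, while CPT1A, the entry enzyme, and its regulator PPARA fell by 1.24 and 1.90 in BR200 and by 1.64 and 1.54 in BR100.

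**Figure D4:**
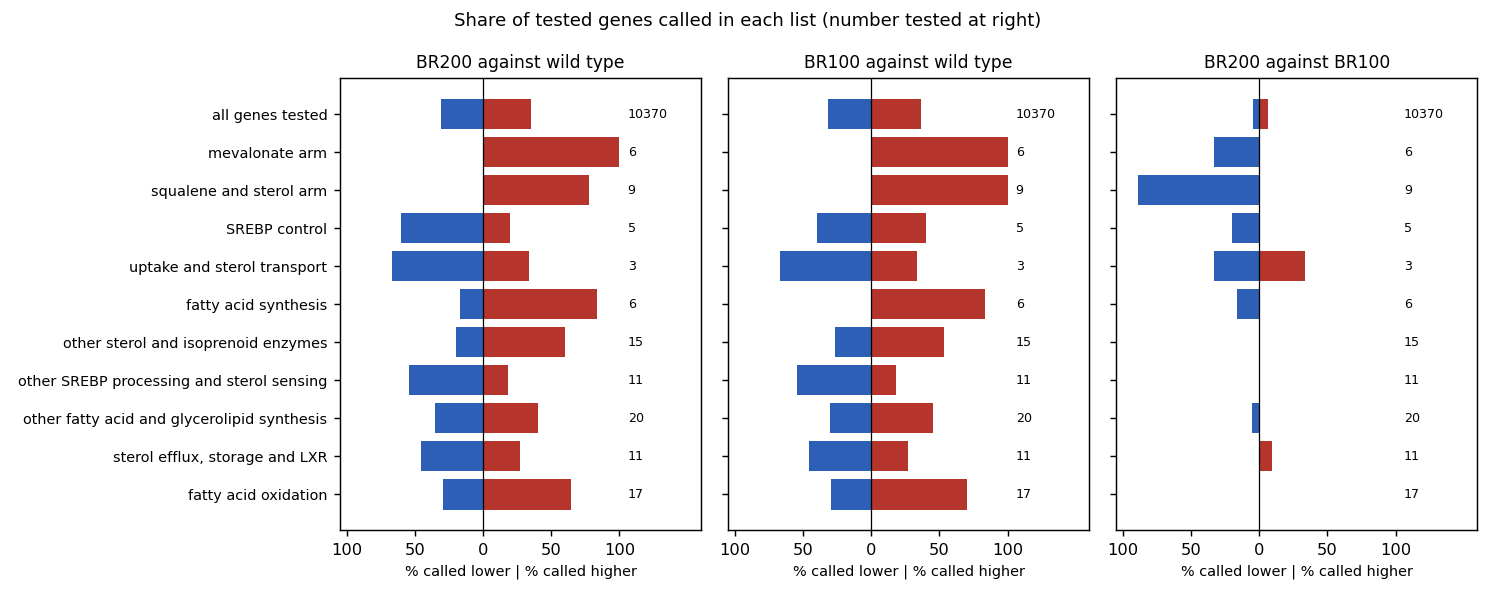
Share of the tested genes of each list called higher (red, right) or lower (blue, left), in percent (x axis), for the 3 comparisons (panels); numbers at the right give the genes tested. In the panel of BR200 against BR100, the blue bar of the squalene and sterol arm stands for 8 of 9 genes, against 4.23% of all genes tested.

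The clones were then set against each other, which also tests whether their changes from wild type differ. Sterol synthesis genes were lower in BR200 than in BR100, and MYLIP was higher. Of the 29 tested members, 13 were called lower, against 4.23% of all genes tested, and 1 higher, against 6.39%. The median log2 difference was −0.31 for the members and −0.01 for all genes. On both kits 24 of the 29 were lower in BR200, against 39.9% of all genes. The ACTB gap was 3.24 in BR200 and 3.03 in BR100 on Express arrays, and 1.76 in BR200 and 1.86 in BR100 on One-Cycle arrays. The GAPDH gap was 0.204 in BR200 and 0.224 in BR100 on Express arrays, and 0.176 and 0.155 on One-Cycle arrays. The part of RNA integrity and labelling in the difference between the clones was not tested.

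The 13 lower genes fell mainly in the squalene and sterol arm, where 8 of 9 were called lower (median −0.54), against 4.23% of all genes. The widest gaps were those of INSIG1 at −0.82 (SE 0.08, adjusted p = 0.0167), SC5D at −0.80 (SE 0.08, adjusted p = 0.0162) and DHCR7 at −0.79 (SE 0.10, adjusted p = 0.0263). For these 3 genes, picked for their gaps, both BR200 arrays were under both BR100 arrays, which adds no support. MSMO1 and TM7SF2 were lower by 0.73 each, EBP by 0.54, LSS by 0.53, SQLE by 0.51 and NSDHL by 0.48. HSD17B7 was the exception of the arm at −0.31 (SE 0.08, adjusted p = 0.0758). The mevalonate arm split: HMGCS1 and IDI1 were lower by 0.50 and 0.48, while ACAT2, FDPS, MVK and PMVK, at −0.18, −0.29, −0.29 and 0.06, did not pass. STARD4 was lower by 0.48 and ELOVL6 by 0.42, the only called gene of 6 in fatty acid synthesis, where all 6 values were negative (−0.42 to −0.17). MYLIP was 2.61-fold higher in BR200 (log2 difference 1.38, SE 0.14, adjusted p = 0.0167), and SREBF1 was at 0.38 (SE 0.08, adjusted p = 0.0544). Outside the members, ABCA1 was higher by 0.72 (SE 0.08, adjusted p = 0.0185) and ABCG1 was at 0.24 (SE 0.12, adjusted p = 0.253). None of 15 other sterol and isoprenoid enzymes and none of 11 sterol sensing genes was called by limma between the clones. Of all genes tested, 6.39% were called higher and 4.23% lower, so lists this short without a call lie near those shares.

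When each of 60 member probe sets was tested on its own, 18 were lower, against 1.74% of all probe sets, and 3 higher, against 3.96%. In that limma fit the probe sets used for HMGCS1, IDI1, NSDHL, STARD4 and ELOVL6 lost their calls (adjusted p = 0.0509 to 0.0704). For MYLIP, 220319_s_at and 223129_x_at did not pass either (adjusted p = 0.14 and 0.0518). The calls by gene changed with the settings. Without the block 0 members were called lower. At an unadjusted p under 0.05 in limma 11 members were lower, beside 1292 of all 10370 genes in either direction. Without the filter 0 were called lower, and 16 were lower unadjusted, beside 2956 of all 19775 genes in either direction. With any 1 array left out most of the calls were lost, while the median of the members was −0.40 to −0.31. Leaving out an array leaves 1 residual degree of freedom, and DHCR7, INSIG1 and MYLIP kept their calls only without either wild type array, while the other 11 genes lost theirs in every omission.

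**Figure D5:**
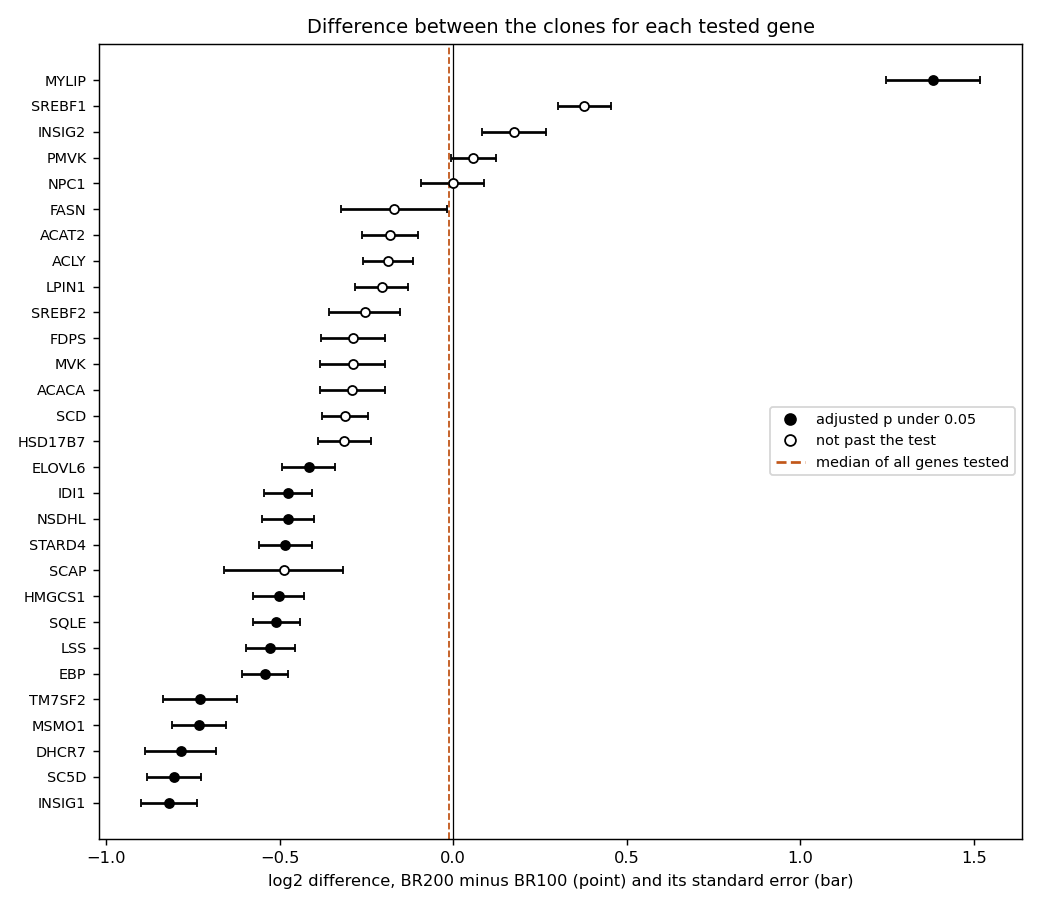
Log2 difference BR200 minus BR100 (x axis, points, with the standard error as bars) for the 29 tested members (rows, ordered by the difference); filled points passed the test, and the dashed line is the median of all genes tested. INSIG1 at −0.82 and SC5D at −0.80 stand at the lower end and MYLIP at 1.38 at the upper end.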

How the data were processed

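Total RNA of 6 HT-29 samples was measured on Affymetrix arrays of 54675 probe sets. The deposited values are log2 expression, 1 per probe set, made by the authors with GCRMA, per the submitters' processing notes; its version is not given in the sources used here, nor are detection calls. Of the probe sets, 41097 carry a single gene in the annotation, 1801 carry several and 11777 carry none. Symbols were checked through gene identifiers against RefSeq, and 0 of 41043 differed. A gene was represented by the probe set, naming it alone, with the highest mean.

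All 6 arrays entered 1 model of variant plus labelling kit (limma 3.58.1, R 4.3.3), from which the 3 comparisons were taken, two-sided, with Benjamini-Hochberg adjustment over 10370 genes. The model had 2 residual degrees of freedom, and eBayes added 2.33. Errors of changes are limma's standard errors (SE). The number of arrays and the signal over background limit the precision. The model was tested on simulated data in which few genes changed, in 1 clone only. Most tested genes were called against wild type here, so that simulation does not cover the setting of these data.

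Members and gene lists were chosen with earlier results of these data known. All members are named; of each other list, up to 4 called genes with the largest change against wild type are named, and LGALS4 and NR1H3 were chosen after their values were seen. Alternatives were the kit block, the probe sets, the filter, the scaling, the variance trend and each array left out. Sequences came from RefSeq (GRCh38.p14).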

Additional observations from a re-analysis of the deposited data

Results flagged for a closer look

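The change from wild type differed between the clones for 14 members, by limma's test of BR200 minus BR100 at an adjusted p under 0.05. Of these, 13 were lower in BR200, against 4.23% of all genes tested, and 1 was higher, against 6.39%. Without the kit block, and likewise without the filter, 0 members were called. The differences were −0.50 for HMGCS1, −0.48 for IDI1, −0.51 for SQLE, −0.53 for LSS, −0.73 for TM7SF2, −0.73 for MSMO1, −0.48 for NSDHL, −0.54 for EBP, −0.80 for SC5D, −0.79 for DHCR7, −0.82 for INSIG1, −0.48 for STARD4, −0.42 for ELOVL6 and 1.38 for MYLIP (log2). The direction was the same on both kits for each of the 14, and for 7739 of all 10370 genes tested. A test with kit as a block favours genes on which the kits agree, so this agreement adds no support.

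Probe sets that the annotation gives to a member together with another gene were left out of every comparison, and 3 of the 5 reached 4 on at least 2 arrays and were above wild type in both clones. Those of CYP51A1 and LRRD1 were 1.02 (202314_at) and 1.81 (216607_s_at) above wild type in BR100, and 0.58 and 1.13 above it in BR200. One shared by FADS1 and MIR1908 (208963_x_at) was 0.37 above wild type in BR100 and 0.66 above it in BR200, at values of 4.20 and 4.23 in BR200, 3.89 and 3.94 in BR100, and 3.50 and 3.60 in wild type. These differences were not tested.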

How the results depend on the processing

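Against wild type, the counts and medians of members kept their direction under every alternative run. Without the replicate block for kit, 4100 genes of all were called in BR200 and 4387 in BR100, and 2 members were called lower in BR200; between the clones 112 genes and 0 members were called, higher or lower. Averaging the probe sets per gene gave member medians of 0.78 in BR200 and 0.998 in BR100. With each probe set on its own, 36 of 60 member probe sets were higher in BR200, against 29.7% of all 19055 probe sets. In BR100, 44 were higher, against 32.0%, and 8 lower, against 30.9%. In either direction 11349 of all were called in BR200 and 11972 in BR100. The BR200 median was 0.78. Between the clones 3 were higher, against 3.96%, and the median was −0.34. Without _x_at and _s_at probe sets 20 members remained testable: 11 were higher in BR200 (median 0.58) and 13 in BR100 (median 0.87), and between the clones 8 were lower (median −0.35). Of all 7793 genes in that run, 5070 were called in BR200, 5256 in BR100 and 742 between the clones, in either direction. ACAT2, PMVK, TM7SF2, HSD17B7, SC5D, DHCR7, ACLY, FASN and SCD dropped out of that run. Without a filter, 2 members were called lower in each clone. In that run 4612 of all 19775 genes were called in BR200 and 4911 in BR100, in either direction. The BR200 median was 0.78, and between the clones 15 genes and 0 members were called, higher or lower. Between the clones, 2 members were higher with the filter at 5 and with quantile normalization (median −0.34). These runs called 1385 of all 9787 genes and 1302 of all 10381, in either direction. The intensity trend called 1745 genes of 10370. The causes were not tested, apart from the fewer probe sets or genes that some alternatives leave. The values of SCD and IDI1 turned: SCD to 0.30 in BR200 and 0.92 in BR100 with probe sets averaged, and IDI1 to 0.43 between the clones without _x_at and _s_at probe sets.

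Leaving out each array in turn gave 18 to 20 members higher and 4 to 5 lower in BR200 (median 0.84 to 0.96), 22 to 23 higher and 3 to 5 lower in BR100 (median 1.18 to 1.38), and 0 to 1 higher and 0 to 2 lower between the clones (median −0.40 to −0.31). Of all genes, 5154 to 6472, 5551 to 6622 and 0 to 258 were called. Without the BR200 Express array, where limma called 0 of 10321 genes between the clones, 1997 had an unadjusted p under 0.05.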

Other observations

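Some member probe sets read far apart between the labelling kits in all 3 variants. The mean over 3 One-Cycle arrays minus that over 3 Express arrays was 2.88 for 211162_x_at and 2.03 for 211708_s_at of SCD, 1.86 for 205822_s_at of HMGCS1, 1.23 for 213562_s_at of SQLE and 1.14 for 201790_s_at of DHCR7 (log2). It was −0.84 for 1557352_at of SQLE. The probe set used for SCD was at −0.16, and that used for ACAT2 at −0.09.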
